A study of Mus musculus with 6 samples.

Results

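Astrocytes of the mouse hypothalamus were taken from single-nucleus RNA sequencing (nucSeq) of mice that had been fed ad libitum or fasted. A nucleus was counted as an astrocyte when it held at least 1000 unique molecular identifiers (UMIs, each standing for 1 captured transcript), at least 3 UMIs of *Aqp4*, *Agt*, *Gjb6* and *Ntsr2* together, no UMI of the tanycyte gene *Rax*, at most 2 UMIs of the neuronal genes *Snap25*, *Syt1* and *Rbfox3*, and fewer than 3 UMIs each of an oligodendrocyte set (*Mog*, *Mag*, *Ermn*, *Mobp*) and an oligodendrocyte precursor cell (OPC) set (*Pdgfra*, *Cspg4*, *C1ql1*). Of 39953 barcodes, 39665 held at least 1000 UMIs, and 884 of these met the rule. They were 131, 126, 45 and 38 nuclei in ad libitum fed libraries 1 to 4 and 264 and 280 nuclei in fasted libraries 1 and 2.

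All mice were C57Bl/6 wild-type males of 6 to 8 weeks. The fed mice had free access to chow, and the other group went without food for 16 h. Hypothalami of 6 mice were pooled before nuclei were isolated and sorted by their DRAQ5 stain, which gave 1 fasted pool and, on separate days, 2 fed pools. The nuclei of a pool went into 2 tubes and each tube became 1 library, so the libraries of a pool hold the same mice, and the labels do not say which fed libraries share a pool. No barcode of an astrocyte occurred in more than 1 library.

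Astrocytes are glia whose processes wrap synapses and small blood vessels. They clear glutamate and potassium after neurons fire, store glycogen, pass lactate to neurons and make cholesterol and apolipoprotein E for other cells. In the hypothalamus they also meet circulating signals of the fed and fasted state, among them glucose, fatty acids, insulin, leptin, thyroid hormone and glucocorticoids.

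The nuclei were thus chosen by the UMIs of the 4 astrocyte genes and of the excluded genes, whose levels are given as a description. Levels are in CPM, the UMIs of a gene summed over the astrocytes of a library and scaled by the total UMIs of those astrocytes. *Aqp4*, the water channel of astrocyte endfeet, was at 285, 303, 447 and 215 CPM in fed libraries 1 to 4 and at 109 and 111 CPM in the fasted libraries. *Agt*, the angiotensin precursor that astrocytes make in the brain, was at 468, 498, 1182 and 1125 CPM in the fed and 534 and 515 CPM in the fasted libraries. *Gjb6*, the gap junction protein connexin 30, was at 259, 289, 605 and 516 CPM against 341 and 326 CPM. The fasted libraries lay below all fed ones for *Aqp4*, whereas for *Agt* and *Gjb6* they lay between fed libraries 1 and 2 and fed libraries 3 and 4. *Ntsr2*, a neurotensin receptor found on astrocytes, was the most even of these 4 genes, at 937, 870, 911 and 1075 CPM in the fed and 800 and 836 CPM in the fasted libraries. In all, 272 astrocytes held exactly 3 UMIs of the 4 genes, just inside the rule, and a further 316 nuclei that met the other criteria held 2, just outside it. These edges were uneven: 49, 51, 1 and 3 fed and 82 and 86 fasted astrocytes stood just inside.

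The label was checked against 20 astrocyte markers that the rule did not use, such as the glutamate transporters *Slc1a2* and *Slc1a3* and the proteoglycan *Gpc5*, the most abundant of them. Their summed level was 19617, 18038, 16069 and 16946 CPM in the fed and 19137 and 19345 CPM in the fasted astrocytes. The median over the 6 libraries was 18588 CPM, against 4028 CPM in nuclei called tanycytes, 3562 CPM in OPCs, 958 CPM in oligodendrocytes and 721 CPM in neurons by comparable UMI rules. In the astrocytes, the medians of the other lists were 110 CPM for 10 tanycyte markers, 37.0 CPM for 9 ependymal markers, 219 CPM for 10 oligodendrocyte markers, 209 CPM for 9 OPC markers, 76.3 CPM for 10 microglia markers and 180 CPM for 12 endothelial and mural markers. *Rax* was at 0 by rule. The oligodendrocyte, OPC and neuron lists also hold the genes that the rule capped. Their levels in the astrocytes are therefore in part set by the rule. The 12 neuron markers summed to a median of 2361 CPM, of which *Meg3* was the most abundant, and 2146 CPM of the same list was found in oligodendrocytes.

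**Figure D1:**
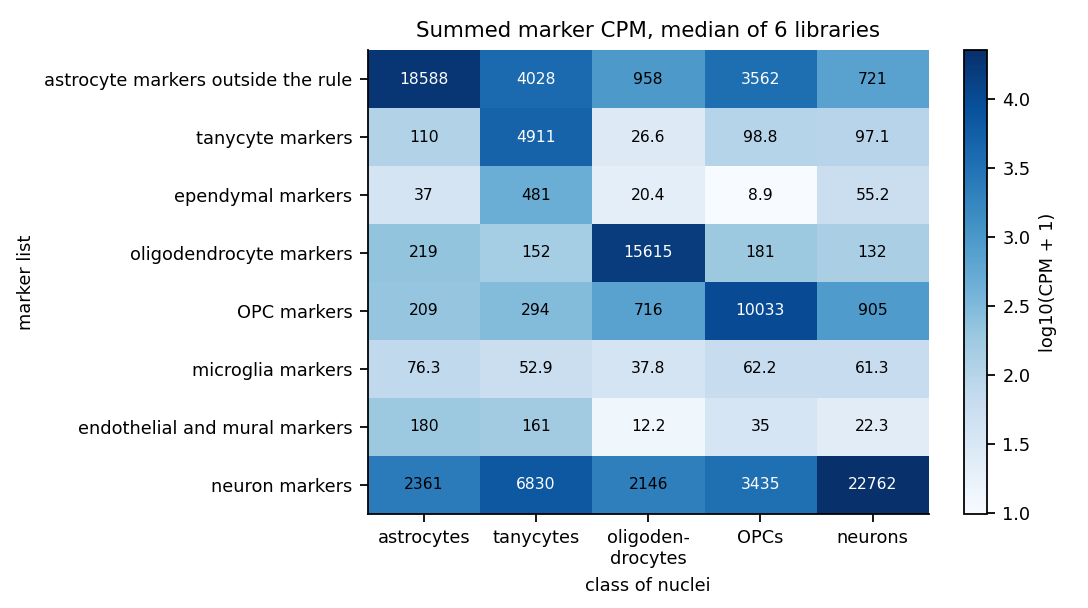
Summed CPM of 8 marker lists (rows) in 5 classes of nuclei (columns), as the median of the 6 libraries, with the colour on a log10(CPM + 1) scale. The 20 astrocyte markers outside the rule reach 18588 CPM in the astrocytes and at most 4028 CPM in another class. The tanycyte, oligodendrocyte, OPC and neuron lists hold genes that chose or excluded these nuclei, so those rows are in part set by the rules.

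A small set of members went against the label. No *Slc1a2* and no *Gpc5* UMI was found in 18 of the 884, which were 0, 1, 6 and 4 nuclei of the fed and 4 and 3 nuclei of the fasted libraries. Of these 18, 15 had entered through *Gjb6* alone, 1 held an *Aqp4* UMI and 1 an *Ntsr2* UMI, although their median depth of 4716 UMIs exceeded the 2438 UMIs of all members. They carried 6563 of the 6975 UMIs of *Ptgds* (prostaglandin D2 synthase) found in the members, which is 94.1%, and 98.1% of those of *Igfbp2* (an insulin-like growth factor binding protein), 98.5% of *Rbp4*, 94.8% of *Slc6a20a* and 94.4% of *Vtn*. The set weighed most on fed libraries 3 and 4, where *Ptgds* stood at 21199 and 15154 CPM against 61.3 and 73.1 CPM in fed libraries 1 and 2 and 949.5 and 587 CPM in the fasted libraries. The endothelial and mural list, led by *Vtn*, likewise summed to 1471 and 681 CPM in fed libraries 3 and 4, and to 170 and 92.7 CPM without the 18 nuclei. The set keeps no cell type name here. It stays in the values below because the rule holds it, and the main counts are given with and without it.

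Astrocytes were a larger share of the nuclei in the fasted libraries. They made up 1.55% (95% exact binomial interval 1.30 to 1.84%), 1.90% (1.58 to 2.25%), 0.708% (0.517 to 0.946%) and 0.596% (0.422 to 0.817%) of the nuclei in fed libraries 1 to 4. The share was 4.42% (3.91 to 4.97%) and 4.77% (4.24 to 5.34%) in the fasted libraries. Both fasted values lay above all 4 fed ones, and the means were 1.19% ± 0.637 (SD, n = 4 libraries) and 4.59% ± 0.246 (SD, n = 2 libraries), a ratio of 3.87. The ratio was 2.66 against fed libraries 1 and 2 and 7.05 against fed libraries 3 and 4. This gap between the fed pairs depended on the minimum of 3 UMIs: with at least 5 UMIs of the 4 genes the shares were 0.450%, 0.662%, 0.660% and 0.502% in the fed and 1.87% and 1.99% in the fasted libraries. With 3 pools, the smallest p that an exact permutation test allows is 0.333, so no test was made, and the intervals cover counting error only.

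**Figure D2:**
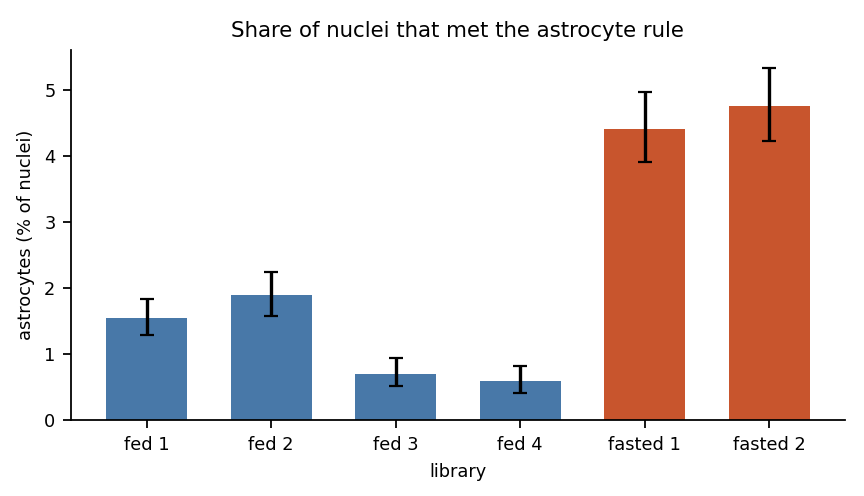
Astrocytes as a percentage of the nuclei with at least 1000 UMIs (y axis) in each library (x axis), with bars for the share and lines for the 95% exact binomial interval. Both fasted libraries stand above 4%, and the 4 fed libraries stand below 2%.

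Oligodendrocytes shared this order. They made up 1.88%, 2.06%, 0.362% and 0.502% of the fed and 8.25% and 9.14% of the fasted libraries, and neurons 83.8%, 81.9%, 94.7% and 95.1% against 69.7% and 67.9%. For each oligodendrocyte there were 0.824, 0.920, 1.96 and 1.19 astrocytes in the fed and 0.536 and 0.521 in the fasted libraries. A share of sorted nuclei cannot tell more astrocytes from fewer recovered neurons, and with 1 fasted pool the fast and the preparation of the pool cannot be told apart.

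Depth and RNA composition also split the fed libraries into pairs. The median astrocyte held 2080, 2242, 3588 and 3478 UMIs in fed libraries 1 to 4 and 2520.0 and 2497.5 in the fasted libraries, which is fewer than the median neuron of the same library held (4695 to 8891.5 UMIs). The summed astrocyte counts came to 277513, 287394, 176798 and 139504 UMIs in the fed and 686670.0 and 720967 UMIs in the fasted libraries. Mitochondrially encoded genes took 0.125%, 0.137%, 0.700% and 0.629% of the fed and 0.0393% and 0.0398% of the fasted astrocyte UMIs. Ribosomal protein genes took 0.399%, 0.450%, 1.59% and 1.80% against 0.293% and 0.277%. In both shares fed libraries 3 and 4 were highest and the fasted libraries lowest, so a gene that follows this order moves with RNA composition, and the part of the latter in any result below was not tested.

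To ask which astrocyte genes differ between the fed and the fasted state, the summed counts of each pool were compared by edgeR's quasi-likelihood test, over all 3 ways to pair the fed libraries, with the largest p of each gene kept and adjusted by the Benjamini-Hochberg method. No gene passed: 0 of 8478 tested genes (0.00%) reached an adjusted p of 0.05, the lowest adjusted p was 0.99985, and DESeq2 called 0 as well. An unadjusted p under 0.05 was found for 297 genes, of which 46 (0.543% of those tested) were higher and 251 (2.96%) lower after the fast. Of the 3 pairings, that of the fed libraries that resembled each other (1 with 2 and 3 with 4) gave 0 calls and the others 1271 and 1140. Values are therefore given by library. Both fasted libraries lay above all 4 fed libraries for 1368 genes (16.1% of those tested) and below them for 771 (9.09%), and without the 18 nuclei for 1369 and 728 of 8279 genes. For 729 (8.60%) of those above and 296 (3.49%) of those below, as shares of all tested genes, the fasted mean also lay farther, on the log scale, from either fed pair (1 with 2, 3 with 4) than the pairs lay from each other. With CPM scaled by TMM factors the split was 1035 above and 917 below. A gene was tested when 2 of the 6 libraries held at least 10 of its counts, and 3355 genes passed with fewer than 2 such fed libraries, which the deeper fasted sums made possible. Among the other 5123 genes 832 (16.2%) lay above and 640 (12.5%) below. Among the 2153 genes with at least 10 counts in all 6 libraries, 426 lay above and 399 below.

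Promoters are shown for *Zfhx3*, one of the 12 genes ranked highest after the fast, and *Fkbp5*, a glucocorticoid target outside these 12, because each holds a short sequence searched for in these genes. Each run is the 250 bases upstream of the RefSeq start of the gene, 5′ to 3′ on the strand of the gene, in build GRCm38.p6, with the motif in capitals. In *Zfhx3* (plus strand, chr8:108714394-108714643) the capitals mark AGAACA, 1 arm of the glucocorticoid receptor element, read on the opposite strand and starting 211 bases before the start. In *Fkbp5* (minus strand, chr17:28486150-28486399) they mark the E-box CACGTG, the core of the element that clock and other basic helix-loop-helix factors bind, starting 169 bases before the start. The RefSeq starts lie inside the longer gene spans of the annotation given below.
Zfhx3: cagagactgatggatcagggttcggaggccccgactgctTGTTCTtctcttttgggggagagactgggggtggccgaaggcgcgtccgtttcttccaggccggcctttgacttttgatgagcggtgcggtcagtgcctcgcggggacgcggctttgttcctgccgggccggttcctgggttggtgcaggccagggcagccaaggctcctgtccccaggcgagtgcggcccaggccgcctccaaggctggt
Fkbp5: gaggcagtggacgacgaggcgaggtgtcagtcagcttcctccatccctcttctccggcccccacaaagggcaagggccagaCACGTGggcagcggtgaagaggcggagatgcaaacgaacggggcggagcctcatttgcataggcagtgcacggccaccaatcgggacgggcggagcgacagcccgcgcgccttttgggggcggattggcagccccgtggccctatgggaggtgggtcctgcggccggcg
Of the 13 genes searched, 11 matched a RefSeq promoter of 300 bases (250 before the start and 50 after it). On either strand AGAACA stood in 2 of the 11, *Zfhx3* and *Sult1a1*, and in 19.0% of all 32851 promoters of that length, while CACGTG stood in 2, *Fkbp5* and *Slc24a4*, and in 7.15%. The full palindromic glucocorticoid receptor element, which contains AGAACA, the cAMP response element TGACGTCA, the FoxO motif TTGTTTAC and the D-box TTATGTAA stood in 0 of the 11 and in 0.00913%, 1.79%, 1.23% and 0.938% of all promoters. A match describes the letters of the window and no more.

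*Zfhx3* (ENSMUSG00000038872, chr8:107942644-108961630, plus strand), a large homeobox and zinc finger transcription factor known for its role in the suprachiasmatic clock, was at 141, 223, 153 and 86.0 CPM in the fed astrocytes and at 754 and 816 CPM in the fasted ones. Each fasted library lay more than 3 times above the highest fed library, and the fed pairs overlapped each other. The log2 fold change, fasted over fed, was 2.23 ± 0.56 (SE of the fit over 2 fed pools and 1 fasted pool), and 2.20 without the 18 nuclei. *Hif3a* (ENSMUSG00000004328, chr7:17031507-17062427, minus strand), a hypoxia-inducible factor subunit that glucocorticoids are known to induce, was at 50.4, 59.2, 56.6 and 86.0 CPM against 339 and 355 CPM. The fed libraries were close to each other and far below both fasted ones, with a log2 fold change of 2.33 ± 0.59 (SE). When only the genes with at least 10 counts in all 6 libraries were tested, 12 passed, and *Hif3a* was the 1 of these that was higher (log2 fold change 2.50, edgeR adjusted p = 0.0326). The others were mitochondrially encoded or ribosomal protein genes and *Ndufa4*, *Ndufc2*, *Chchd2* and *Chchd10*. All of these followed the order of RNA composition, highest in fed libraries 3 and 4 and lowest in the fasted libraries.

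*Zbtb16* (ENSMUSG00000066687, chr9:48654297-48836222, minus strand), a zinc finger repressor and a glucocorticoid target in many tissues, was at 36.0, 27.8, 56.6 and 28.7 CPM in the fed and 151 and 162 CPM in the fasted astrocytes. The groups did not overlap, and the log2 fold change was 1.91 ± 0.61 (SE). *Fkbp5* (ENSMUSG00000024222, chr17:28399094-28517527, minus strand), the co-chaperone that dampens the glucocorticoid receptor and is itself its target, was at 7.21, 6.96, 28.3 and 21.5 CPM against 85.9 and 66.6 CPM. All fed libraries were low, with libraries 3 and 4 above libraries 1 and 2, and the log2 fold change was 2.17 ± 0.83 (SE). *Fkbp5* was not among the 12 ranked highest, because on the log scale the fasted mean lay no farther from the nearer fed pair than the pairs from each other. Without the 18 nuclei its fed values were 7.21, 3.52, 14.8 and 0 CPM and the log2 fold change was 3.31. In the annotation *Zfhx3* and *Fkbp5* overlap other small genes on the same strand, where the source of a read is uncertain.

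The other genes with the highest fold changes and an average of at least 20 CPM had diverse roles. *Slc24a4*, a sodium, calcium and potassium exchanger, was at 7.21, 0, 0 and 21.5 CPM in the fed and 42.2 and 62.4 CPM in the fasted libraries. Its fitted log2 fold change of 2.99 ± 0.81 (SE) rested on 2, 0, 0 and 3 fed UMIs and is not a firm size, since the gene was tested only because of its fasted counts. *Hr*, a corepressor of thyroid hormone and vitamin D receptors and itself a thyroid hormone target in the brain, was at 104, 52.2, 45.2 and 14.3 CPM against 240.3 and 223 CPM (log2 fold change 1.94 ± 0.64, SE). The fed values of *Hr* spread widely, yet the highest stayed under both fasted ones. *Wnk2*, a kinase that regulates chloride cotransporters, was at 101, 90.5, 45.2 and 136 CPM against 331 and 354 CPM (1.78 ± 0.56, SE). *Ccnd3*, cyclin D3, was at 101, 93.9, 90.5 and 78.9 CPM against 307 and 377 CPM (1.77 ± 0.56, SE), and its 4 fed libraries were nearly equal. In none of these genes did the groups overlap. *Rhou*, an atypical small GTPase that overlaps a predicted gene on its strand, was at 50.4, 83.5, 102 and 35.8 CPM against 227 and 295 CPM (1.76 ± 0.58, SE). *Arhgef28*, a guanine nucleotide exchange factor, was at 75.7, 38.3, 28.3 and 43.0 CPM against 165 and 135 CPM (1.56 ± 0.60, SE). Both genes were again separated by group. The sulfotransferase *Sult1a1*, the membrane protein *Igdcc3* and the DNA repair protein *Rad52* completed the 12 genes, each likewise under 10 UMIs in every fed library, with log2 fold changes of 2.16, 1.85 and 1.66 and with at most 69.4 CPM in a fasted library. For *Sult1a1* the log2 fold change was 3.28 without the 18 nuclei, with 7.40 CPM in fed library 3 where it had been at 28.3 CPM.

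**Figure D3:**
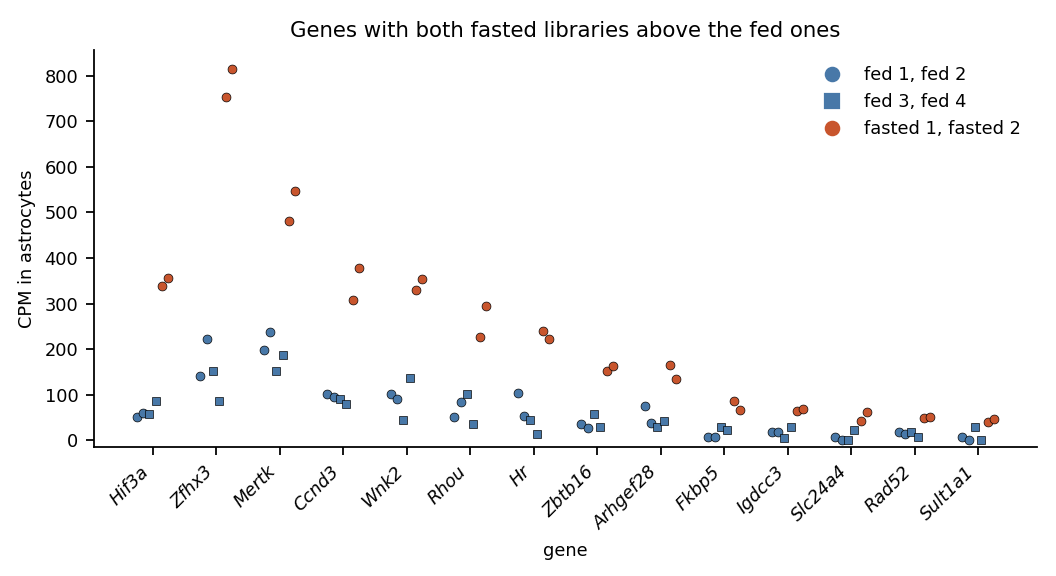
CPM in astrocytes (y axis) of 14 genes (x axis) in each library, with blue circles for fed libraries 1 and 2, blue squares for fed libraries 3 and 4 and orange circles for the fasted libraries. The genes were drawn because both fasted libraries lie above the 4 fed ones, and *Fkbp5*, *Igdcc3*, *Slc24a4*, *Rad52* and *Sult1a1* were tested only because of their fasted counts. After the fast *Zfhx3* stands at 754 and 816 CPM and *Hif3a* at 339 and 355 CPM.

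The list of glucocorticoid-responsive genes had the highest median log2 fold change of the lists, but this rested on genes with few counts in the fed libraries. Of 26 genes 21 were tested, 9 lay above all fed libraries and 2 below, against 16.1% and 9.09% of all tested genes, and the median log2 fold change was 0.72 against -0.003 over all genes. Against fed libraries 1 and 2 the median was 1.12 and against libraries 3 and 4 it was 0.32. Of the 21, 9 reached 10 counts in 2 libraries only with the help of the deeper fasted libraries. Among the other 12, 5 lay above and 2 below, with a median of 0.06. Of all genes with at least 10 counts in 2 fed libraries, 16.2% lay above and 12.5% below. The summed level of the list overlapped between groups, at 1985.5, 1948.5, 3128 and 2903 CPM in the fed and 2952 and 3103 CPM in the fasted libraries, with *Mt1* its most abundant gene. In oligodendrocytes the groups did not overlap, at 794, 844, 973 and 966 CPM against 2353 and 2327 CPM. Nor did they in neurons, at 518, 531, 495 and 499 CPM against 679 and 666 CPM. They were also apart in OPCs but overlapped in tanycytes. Of the list in astrocytes none passed the adjusted threshold, and 5 had an unadjusted p under 0.05 in the edgeR fit, all higher: *Hif3a*, *Fkbp5*, *Zbtb16*, *Sult1a1* and *Mertk*. *Fkbp5* (2, 2, 5 and 3 fed UMIs) and *Sult1a1* (2, 0, 5 and 0) were tested only because of their fasted counts, which leaves 3. Without the 18 nuclei 12 of 21 lay above and 2 below, where over all genes 1369 and 728 of 8279 did so. This count again includes genes tested only because of their fasted counts. *Mertk*, the receptor by which astrocytes engulf synapses and debris, was at 198, 237, 153 and 186 CPM in the fed and 482 and 548 CPM in the fasted astrocytes, with a log2 fold change of 1.28 ± 0.55 (SE). *Tsc22d3*, which encodes the glucocorticoid-induced leucine zipper, was at 46.8, 66.1, 67.9 and 93.2 CPM against 157 and 160 CPM (1.08 ± 0.61, SE). In both genes the groups did not overlap. The metallothionein *Mt1* was lowest after the fast, at 566, 567, 1391 and 1290 CPM against 449 and 534 CPM, with the largest gap inside the fed group. The list was also chosen with earlier results of these data known, so its count is a description.

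The insulin-linked and FoxO genes were tested for 16 of 25, of which 7 lay above and 0 below, with a median log2 fold change of 0.34. Over all tested genes the shares were 16.1% and 9.09%. Among the 10 with at least 10 counts in 2 fed libraries, 5 lay above and 0 below, against 16.2% and 12.5% of such genes. *Bcl6*, a repressor and FoxO target, was at 68.5, 76.5, 56.6 and 28.7 CPM against 121 and 128 CPM. *Foxo3*, a transcription factor held in check by insulin, was at 43.2, 34.8, 56.6 and 28.7 CPM against 91.7 and 81.8 CPM. The fasted libraries were highest for both. The receptor *Igf1r* was at 306, 282, 209 and 143 CPM against 374 and 333 CPM. The stress protein *Sesn1* was at 141, 181, 221 and 122 CPM against 285 and 300 CPM. The groups again did not overlap, but the log2 fold changes of these 4 genes ran from 0.45 to 0.95 with SEs of 0.57 to 0.64, so each lay under 2 SE from 0. The insulin receptor adaptor *Irs1* was at 57.7, 59.2, 56.6 and 14.3 CPM against 45.1 and 47.2 CPM, within the fed range.

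Thyroid hormone genes held 5 tested of 9, with 3 above and 0 below, against 16.1% and 9.09% of all tested genes. The list had a median log2 fold change of 0.23. Apart from *Hr*, the receptor *Thra* was at 155, 160, 158 and 115 CPM against 179 and 207 CPM. The second receptor, *Thrb*, was at 285, 296, 175 and 186 CPM against 301 and 301 CPM. Both receptors were highest in the fasted libraries, *Thrb* only just above fed library 2. For *Thrb* the groups overlapped without the 18 nuclei, with 299 CPM in fed library 2 against 300.1 and 298.5 CPM. Of the clock genes 17 of 21 were tested, with 6 above and 2 below and a median of 0.01, which was 0.35 without the 18 nuclei. Among the 13 with at least 10 counts in 2 fed libraries, 4 lay above and 1 below, against 16.2% and 12.5% of such genes. The period gene *Per2*, also a glucocorticoid target, was at 21.6, 20.9, 11.3 and 28.7 CPM against 53.9 and 61.0 CPM. With 6, 6, 2 and 4 fed UMIs, *Per2* was tested only because of its fasted counts. *Npas2*, which pairs with the clock activator *Arntl*, was at 166, 108, 119 and 129 CPM against 284 and 279 CPM (0.97 ± 0.56, SE). Both genes were highest in the fasted libraries, as were most members of the list that did not overlap. *Dbp* and *Nr1d1*, which the activator drives, were among the fewer that were lowest there. *Dbp* was at 72.1, 34.8, 45.2 and 28.7 CPM against 26.2 and 26.4 CPM. *Nr1d1* was at 46.8, 31.3, 33.9 and 57.3 CPM against 24.8 and 19.4 CPM. None of these passed, and the labels give no clock time at which the pools were made.

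Among genes of glycogen, glucose and lactate, 22 of 26 were tested, 8 lay above and 1 below, and the median log2 fold change was 0.29. Over all tested genes 16.1% lay above and 9.09% below. Among the 17 with at least 10 counts in 2 fed libraries, 7 lay above and 1 below, against 16.2% and 12.5% of such genes. *Pdk2* and *Pdk4* are kinases that spare glucose by closing its entry into the citric acid cycle. *Pdk2* was at 46.8, 41.8, 79.2 and 35.8 CPM against 118 and 136 CPM (1.14 ± 0.61, SE). *Pdk4* was at 10.8, 0, 5.66 and 7.17 CPM against 17.5 and 15.3 CPM, near the floor, and was tested only because of its fasted counts. *Aldoc*, the astrocyte aldolase, was at 202, 254, 967 and 1089.6 CPM against 237 and 218 CPM. The fasted libraries lay near fed libraries 1 and 2, and the difference was between the fed pairs. The same order was seen for *Ldhb*, lactate dehydrogenase B, at 144, 111, 390.3 and 530.5 CPM against 108 and 128 CPM.

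Fatty acid and ketone genes had 26 of 34 tested, with 3 above and 4 below, against 16.1% and 9.09% of all tested genes. Among the 20 with at least 10 counts in 2 fed libraries, 3 lay above and 3 below, against 16.2% and 12.5% of such genes. The median log2 fold change of the list was -0.17. *Fabp7*, the fatty acid binding protein of astrocytes and radial glia, was at 133, 83.5, 255 and 93.2 CPM in the fed and 37.9 and 25.0 CPM in the fasted libraries, a log2 fold change of -2.37 ± 0.74 (SE). The long-chain acyl-CoA synthetase *Acsl6* was at 220.0, 247, 221 and 330 CPM against 115 and 147 CPM (-1.08 ± 0.61, SE). *Ppara*, the receptor that drives fat oxidation in fasted liver, was at 72.1, 38.3, 28.3 and 21.5 CPM against 80.1 and 77.7 CPM, only just above fed library 1. The groups overlapped without the 18 nuclei, with 72.1 CPM in fed library 1 against 77.3 and 69.0 CPM, and 2 genes of the list lay above. Of the cholesterol and lipoprotein genes 24 of 29 were tested, 1 lay above and 8 below, and the median was -0.86. *Apoe* was at 2227, 2697, 8456 and 7398 CPM against 1844 and 1778 CPM. *Clu*, clusterin, was at 447, 585, 1872 and 2050.1 CPM against 296 and 312 CPM. Most of the range of both lay between the fed pairs. The lipoprotein receptor *Lrp1* was the member above, at 295, 289, 238 and 272 CPM against 386 and 388 CPM (0.37 ± 0.56, SE).

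**Figure D4:**
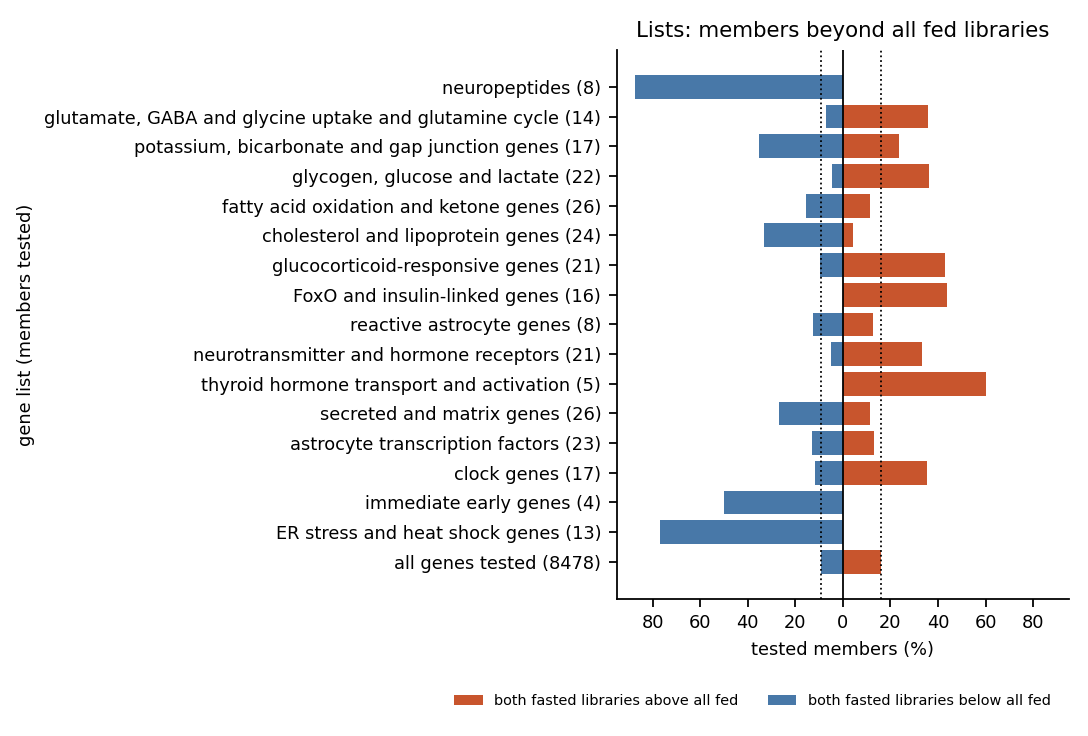
Percentage of the tested members (x axis) of 16 gene lists (y axis, members tested in brackets) for which both fasted libraries lay above (orange, right) or below (blue, left) all fed libraries, with dotted lines at the 16.1% and 9.09% of all tested genes. Members above are 3 of 5 thyroid hormone, 7 of 16 FoxO and insulin-linked and 9 of 21 glucocorticoid-responsive genes, and members below are 7 of 8 neuropeptide and 10 of 13 ER stress and heat shock genes. Of the FoxO and glucocorticoid lists, 6 and 9 genes were tested only because of their fasted counts. Among their other members 5 of 10 and 5 of 12 lay above and 0 and 2 below, against 16.2% and 12.5% of all such genes.

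The best known task of astrocytes is the transport of transmitters. Of 15 genes for uptake of glutamate, GABA and glycine and for the glutamine cycle, 14 were tested, and 5 lay above and 1 below. Over all tested genes 16.1% and 9.09% did so, and the median log2 fold change of the list was -0.03. *Glul*, glutamine synthetase, was at 317, 247, 447 and 616 CPM in the fed and 811 and 792 CPM in the fasted libraries (0.82 ± 0.64, SE), the highest log2 fold change of the list. *Slc1a3* was at 2014, 1907, 1414 and 1290 CPM against 2581 and 2473 CPM. *Slc1a2* was at 2216, 2001, 1097 and 1484 CPM against 2259 and 2362 CPM. The fasted libraries were highest for both transporters, with *Slc1a2* close to fed library 1. The glutamine exporter *Slc38a3* was at 115, 101, 119 and 143 CPM against 69.9 and 73.5 CPM (-0.87 ± 0.63, SE).

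Genes for potassium, bicarbonate and gap junctions had 17 of 19 tested, 4 above, 6 below and a median of 0.01. Over all tested genes 16.1% lay above and 9.09% below. *Hepacam*, the adhesion protein that places channels at endfeet, was at 389, 386, 266 and 387 CPM against 568 and 574 CPM (0.55 ± 0.56, SE). Its partner *Mlc1* was at 90.1, 136, 266 and 280 CPM against 77.2 and 86.0 CPM (-1.41 ± 0.76, SE). The sodium pump subunit *Atp1b2* was at 443, 466, 939 and 724 CPM against 165 and 229 CPM (-1.89 ± 0.72, SE). The fasted libraries thus lay at the top of the range for *Hepacam* and at the bottom for *Mlc1* and *Atp1b2*. The ion channel *Trpm3*, the most abundant gene of the list, was at 6645, 6267, 6307 and 6451 CPM against 7678 and 7082 CPM. This evenness of the fed libraries rested on the 18 nuclei, without which *Trpm3* was at 6645, 6158, 4218.5 and 3902 CPM against 7103 and 6802 CPM.

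Receptors for transmitters and hormones had 21 of 40 tested, with 7 above and 1 below, against 16.1% and 9.09% of all tested genes. The list had a median of -0.002. Among the 17 with at least 10 counts in 2 fed libraries, 6 lay above and 1 below, against 16.2% and 12.5% of such genes. *Adra1a*, the receptor through which noradrenaline raises astrocyte calcium, was at 36.0, 41.8, 22.6 and 7.17 CPM against 61.2 and 61.0 CPM. *Ntrk2*, the BDNF receptor, was at 1020, 835, 747 and 860.2 CPM against 1142 and 1166 CPM. The glutamate receptor *Grm5* was at 184, 170, 147 and 129 CPM against 109 and 121 CPM, below by less than the range of the fed group. Of the transcription factors 23 of 32 were tested, with 3 above and 3 below, against 16.1% and 9.09% of all tested genes. The list had a median of 0.01. Among the 21 with at least 10 counts in 2 fed libraries, 1 lay above and 3 below, against 16.2% and 12.5% of such genes. The members below, named as a description, were the repressors *Hes5*, *Hes1* and *Id3*. *Hes5* was at 281, 205, 181 and 208 CPM against 147 and 112 CPM (-0.89 ± 0.60, SE). *Id3* was at 162, 143, 243 and 158 CPM against 80.1 and 97.1 CPM (-1.16 ± 0.64, SE). *Hey2*, a Notch target like *Hes5*, was at 36.0, 27.8, 17.0 and 28.7 CPM against 39.3 and 56.9 CPM, but with 10, 8, 3 and 4 fed UMIs it was tested only because of its fasted counts. *Hes1* is named after its values were seen.

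Secreted and matrix genes had 26 of 32 tested, 3 above and 7 below, with a median of -0.70. The shares over all tested genes were 16.1% and 9.09%. *Cst3*, the protease inhibitor cystatin C, was at 1939, 2881, 11013 and 11383 CPM in the fed and 885 and 870 CPM in the fasted astrocytes. Fed libraries 3 and 4 stood apart, and the fasted libraries lay under fed library 1 by less than fed libraries 1 and 3 differed from each other. The same order was seen in neurons, where *Cst3* was at 147, 161, 499 and 489 CPM against 51.8 and 50.7 CPM. The growth factor *Fgf1*, which lowers food intake when given to the brain, was at 104, 132, 119 and 78.9 CPM in the fed and 185 and 190.0 CPM in the fasted astrocytes (0.63 ± 0.58, SE). Reactive astrocyte genes were mostly too low to test, with 8 of 25 tested, 1 above (*Stat3*, 68.5, 48.7, 50.9 and 57.3 CPM against 81.6 and 81.8 CPM) and 1 below (*S100b*). The intermediate filament gene *Vim* was found in fed libraries 3 and 4 at 204 and 78.9 CPM and in the other libraries at 7.28 CPM or less. Without the 18 nuclei *Vim* was at 126 and 8.43 CPM in fed libraries 3 and 4.

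The genes lowest after the fast were of other kinds. By the same rule the 12 with the lowest fold changes were the neuropeptide genes *Hcrt*, *Oxt*, *Gal*, *Pomc*, *Pmch*, *Cartpt* and *Avp*, together with *Eef1b2* (translation), *Nop10* (ribosome assembly), *Pgk1* (glycolysis), *Bloc1s1* (endosomal sorting) and *Olig2*, a transcription factor of the oligodendrocyte lineage. Hypothalamic neuropeptides are products of neurons. Of all tested genes 9.09% lay below all fed libraries, and of the 8 neuropeptide genes tested among 20, 7 did. Their sum over the list was 533, 654, 945 and 1276 CPM in the fed and 153 and 129 CPM in the fasted astrocytes. In oligodendrocytes the sum was 519, 660, 812 and 1000 CPM against 153 and 145 CPM, with the libraries in the same order as in astrocytes. The source of these UMIs was not tested. In fed library 4 1 nucleus held 16 of the 19 *Pomc* UMIs, and 1 nucleus held 11 of the 22 *Pmch* UMIs. In astrocytes *Oxt*, oxytocin, was at 46.8, 90.5, 181 and 315 CPM against 14.6 and 5.55 CPM. *Olig2* was at 43.2, 41.8, 56.6 and 21.5 CPM against 0 and 13.9 CPM.

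After the neuropeptides, ER stress and heat shock genes were the list with the largest share below, 10 of 13 tested of 20, with 0 above and a median of -2.12. Over all tested genes 9.09% lay below and 16.1% above. *Hspa5*, the chaperone BiP, was at 72.1, 104, 385 and 559 CPM against 48.1 and 30.5 CPM. The list summed to 868, 919, 3049 and 3204 CPM in the fed and 534 and 498 CPM in the fasted astrocytes, and to 756, 791, 2967 and 2996 CPM against 549 and 538 CPM in neurons. Library by library the astrocytes thus tracked the neurons, and fed libraries 3 and 4 were over 3 times fed libraries 1 and 2. Ribosomal protein and mitochondrial genes did likewise, with 57 of 89 below, 1 above and a median log2 fold change of -2.29. Immediate early genes had 4 of 25 tested, 0 above and 2 below. These were *Jund* at 43.2, 69.6, 153 and 251 CPM against 27.7 and 29.1 CPM, and *Ier5*, which overlapped without the 18 nuclei.

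To ask which responses differed between astrocytes and other cells of the same pools, the fasting effect was compared between cell classes in an interaction fit, in which a shift common to both classes of a pool cancels. Against neurons, 1 of 23434 genes passed (0.00427%), and it was *Zfhx3*. Its level in neurons was 616, 613, 476 and 451 CPM in the fed and 699 and 697 CPM in the fasted libraries. Both fasted libraries thus lay above the fed ones in neurons too, which were high in both states, while fed astrocytes were at 86.0 to 223 CPM and fasted astrocytes at the level of neurons. The log2 fold change was 2.14 ± 0.18 (SE) larger in astrocytes (edgeR adjusted p = 0.0426). The call was not stable: the adjusted p was 0.126 with relative log expression size factors and 0.641 without the 18 nuclei, where the difference was 2.11, and ran from 1.97e-12 to 1 over the alternatives tried. Without adjustment 301 genes had a p under 0.05, and the effect was larger in astrocytes for 130 of these.

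Against oligodendrocytes 0 of 12100 genes passed (0.00%) in the edgeR fit, with 270 at an unadjusted p under 0.05. In oligodendrocytes *Zfhx3* was at 68.0, 67.4, 24.1 and 55.8 CPM in the fed and 61.9 and 54.6 CPM in the fasted libraries. Fed and fasted oligodendrocytes overlapped, and the difference of the fold changes was 2.26 ± 0.27 (SE). Without the 18 nuclei 4 genes passed, *Zfhx3* (2.24, edgeR adjusted p = 0.0224) and, with a lower fold change in astrocytes than in oligodendrocytes, *Sgk3*, *Htra1* and *Gli2*, which are named after their values were seen.

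Levels of *Hif3a*, *Zbtb16*, *Tsc22d3* and *Hr* in other classes are given as a description, since none of them passed in either interaction fit. *Hif3a* was nearly absent from neurons, at 1.35, 1.92, 1.04 and 1.20 CPM in the fed and 3.94 and 5.06 CPM in the fasted libraries, and in oligodendrocytes was at 0, 7.09, 0 and 11.2 CPM against 78.0 and 87.6 CPM. *Zbtb16* was at 16.7, 15.5, 16.6 and 16.1 CPM against 75.3 and 71.9 CPM in neurons and at 22.7, 31.9, 0 and 0 CPM against 313 and 275 CPM in oligodendrocytes. In all 3 classes the fasted libraries lay above the fed ones for both genes. *Tsc22d3* was at 7.57, 8.07, 16.5 and 16.7 CPM against 8.11 and 8.17 CPM in neurons, where the groups overlapped, and the difference from astrocytes was 1.72 ± 0.47 (SE) with an edgeR adjusted p of 1. *Hr* was at 2.84, 2.95, 1.67 and 1.58 CPM in fed and 3.45 and 3.39 CPM in fasted neurons, and at 22.7, 10.6, 8.04 and 22.3 CPM against 16.9 and 13.97 CPM in oligodendrocytes.

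**Figure D5:**
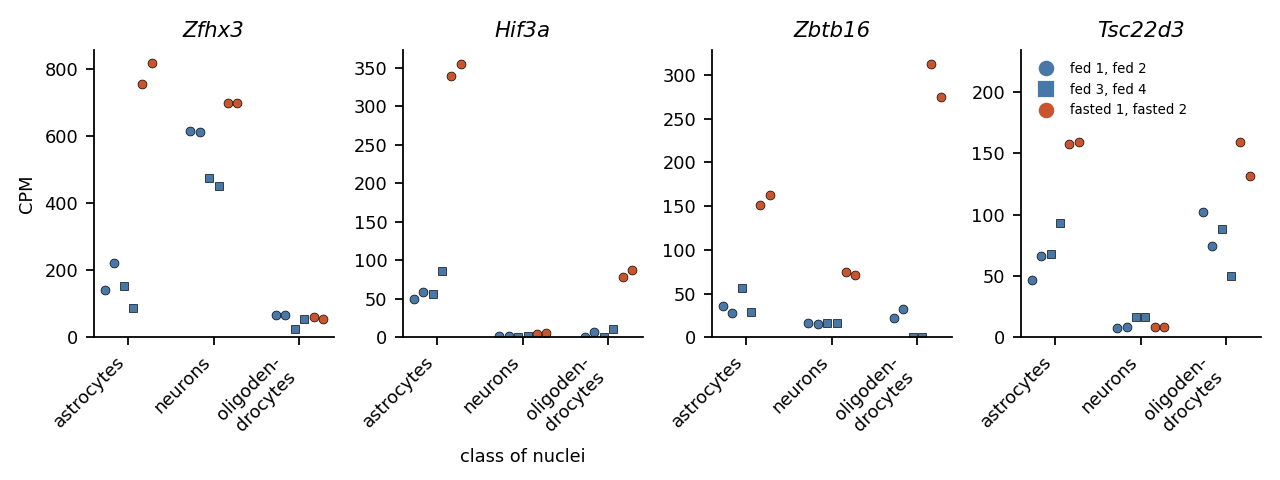
CPM (y axes, each from 0 on its own scale) of 4 genes in astrocytes, neurons and oligodendrocytes (x axis), by library, with blue circles for fed libraries 1 and 2, blue squares for fed libraries 3 and 4 and orange circles for the fasted libraries. *Zfhx3* separates fed from fasted libraries in astrocytes, at most 223 CPM against at least 754 CPM, and by less in neurons, at most 616 CPM against at least 697 CPM, and *Zbtb16* lies higher after the fast in all 3 classes.

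Finally, the astrocytes were compared among themselves by *Gfap*, the intermediate filament gene that marks fibrous and reactive astrocytes and is sparse in most of the hypothalamus. A *Gfap* UMI was found in 9.16%, 7.14%, 6.67% and 5.26% of the fed and 5.30% and 13.6% of the fasted astrocytes, and the groups overlapped. After each nucleus was thinned to 1000 UMIs, 41 of 884 held *Gfap* (4.64%), against 0.205% of neurons, whose median depth before thinning was 6609 UMIs, and 0.145% of oligodendrocytes. These 41 nuclei were 6, 7, 2 and 1 of the fed and 7 and 18 of the fasted libraries, and their median depth of 2458 UMIs was close to the 2438 UMIs of the other 843. The level of *Gfap* was 50.4, 31.3, 339 and 14.3 CPM in the fed and 46.6 and 95.7 CPM in the fasted libraries. The value of fed library 3 came from 1 nucleus with 58 of its 60 *Gfap* UMIs, and without it the level was 11.9 CPM.

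Within pools, 13 of 8477 genes differed between *Gfap*-detected and other astrocytes (0.153%), 10 higher and 3 lower, while the median log2 difference of all genes was -0.31. Among those higher in the *Gfap* group were *Slc38a1* (a glutamine transporter), *Synpo2* (an actin-bundling protein), *Padi2* (an enzyme that citrullinates proteins), *Sulf2* (a heparan sulfatase), *C4b* (complement C4), *Fbxo2*, *Fxyd1* (a regulator of the sodium pump) and *Aqp4*. As *Aqp4* chose the nuclei, its difference is a description, which leaves 9 genes higher. *Slc38a1* had 57 UMIs in 14 of the 41 nuclei and 113 UMIs in 72 of the 843, which is 529 against 51.8 CPM, a log2 difference of 2.93 ± 0.40 (SE, edgeR adjusted p = 1.57e-09), and it was higher in 5 of 6 libraries. *C4b* was at 167 against 21.1 CPM (2.47 ± 0.62, SE, edgeR adjusted p = 0.0409), higher in 3 of 6 libraries and at 0 in the *Gfap* group of the other 3. The 3 lower genes, *Ptgds*, *Igfbp2* and *Slc6a20a*, had nearly all their UMIs in the 18 nuclei described above. In fasted library 2, 1 of these 18 held 12 *Gfap* UMIs, the most of any astrocyte there, and is left out with them. The 13 calls depended on few nuclei: 7 genes passed without the 18, among them *Sulf2*, *Synpo2*, *Fxyd1*, *Slc38a1* and *C4b*, and 0 passed in edgeR without the nucleus with 58 *Gfap* UMIs, where the lowest adjusted p was 0.117. That nucleus alone held 36 of the 54 *Fxyd1* UMIs and 31 of the 67 *Aqp4* UMIs of the *Gfap* group.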

How the data were processed

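The deposited files hold raw UMI counts for 55399 genes in each of the 6 libraries. Per the labels and the study's methods, the authors made them with Cell Ranger 5.0.1 from 10x Genomics 3′ v3 libraries mapped to mm10 (GRCm38). Members were found by the UMI rule given above. No doublet caller was run. Before the exclusions 1005 nuclei held at least 3 UMIs of the 4 genes, and 87, 13, 9 and 20 of them were left out for neuronal, oligodendrocyte, OPC and *Rax* UMIs, some on more than 1 ground. The members and the gene lists were chosen with earlier results of these data known.

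Counts were summed over the members of each pool and fitted by edgeR 4.0.16 (TMM, glmQLFit, glmQLFTest; limma 3.58.1, R 4.3.3) for genes that had 10 or more counts in 2 or more libraries, with DESeq2 1.42.0 as an alternative. With 2 fed pools and 1 fasted pool there was 1 residual degree of freedom, and the spread of the fasted pool was taken to equal that of the fed pools. The interaction fits held the pool as a block and took neurons and oligodendrocytes by at least 3 UMIs of their own genes. The *Gfap* classes were set after each nucleus was thinned to 1000 UMIs, and unthinned counts were compared. The threshold was an adjusted p of 0.05. P-values of the main fits measure the spread between pools, since the libraries of a pool were summed before the fit. In the fasting fit this spread came from the 2 fed pools alone.

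The genes named were drawn from the rule genes, for each functional list the 2 highest, the 2 lowest and up to 3 most abundant tested members, the 12 highest and 12 lowest fold changes over all genes with a mean of at least 20 CPM, with groups that did not overlap and a distance from either fed pair beyond the gap between the pairs, and the leading genes of the other fits, with mitochondrial, ribosomal and predicted genes left out of the ranking. Of these, genes whose fold change turned sign under an alternative are given by level alone. Each fit was tested on simulated counts, with an outcome that is not reported here. In the libraries 1 UMI was worth 1.39 to 7.17 CPM. Alternatives changed the pooling, block, size factors, filter, depth, membership rule and libraries used. Gene positions are from GENCODE M21 (GRCm38), and promoters from RefSeq. Genes that overlap another there, such as *Thra* and *Nr1d1* on opposite strands, are uncertain to that extent. Python 3.11.15, numpy 2.4.6, pandas 2.3.3, scipy 1.17.1 and matplotlib 3.10.9 were used for the rest. Values of some genes counted in the totals are not reported here.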

Additional observations from a re-analysis of the deposited data

Results flagged for a closer look

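Among the 4 fed libraries, 108 levels were searched for a library far from the other 3, and 6 were found; chance alone marks about 1 in 20 such groups. *Hepacam* was lowest in fed library 3, at 266 CPM against 386 to 389 CPM in the others, and *Thra* was lowest in fed library 4, at 115 CPM against 155 to 160 CPM. *Gfap* was highest in fed library 3, at 339 CPM against 14.3 to 50.4 CPM, and 58 of its 60 UMIs there lay in 1 nucleus. *Pomc* was highest in fed library 4, at 136 CPM against 38.3 to 45.2 CPM, and 16 of its 19 UMIs there lay in 1 nucleus. The summed ependymal markers stood at 573 CPM in fed library 4 against 28.3 to 45.2 CPM, with *Tmem212* the most abundant. The summed neuron markers were lowest in fed library 1, at 1967 CPM against 2330 to 2394 CPM. The fasting effect on *Zfhx3* differed between cell classes: it was larger by 2.14 on the log2 scale in astrocytes than in neurons (edgeR interaction, adjusted p = 0.0426). This call was not stable: it was lost with relative log expression factors (adjusted p = 0.126), without the 18 nuclei that hold no *Slc1a2* or *Gpc5* (0.641), and without any 1 library other than fed library 2 (0.0613 to 1).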

How the results depend on the processing

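The fold changes of fasting were printed for genes whose direction did not turn, so their direction says nothing about stability; of 139 genes that met the naming rule, 36 differed in sign against fed libraries 1 and 2 and against 3 and 4. The replicate numbers do not mark shared mice, and same-numbered fed and fasted libraries did not deviate together (r = -0.0858 and 0.0689 over 8478 genes). With the 6 libraries as separate samples and the replicate number as a block 389 genes passed, and without the block 0. With fed libraries 1+2 and 3+4 as pools 0 genes passed, with 1+3 and 2+4 1271 and with 1+4 and 2+3 1140. Against fed libraries 1 and 2 alone 643 passed, with 2320 genes above and 1893 below, and against libraries 3 and 4 alone 1810, with 3489 and 1926. With no filter on low counts the numbers were 21, 2264 and 1217, and with at least 10 counts in all 6 libraries 12, 426 and 399. With at least 10 counts in 2 fed libraries, a filter added after seeing the data, 832 lay above. Thinning to 1000 UMIs gave 769 above and 276 below, at least 5 UMIs of the rule genes 901 and 422, and no UMI of an excluded gene 398 below. Leaving out 1 library gave 0 to 1 calls (1 without fed library 2), 1378 to 1946 above and 945 to 1119 below.

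In the difference from neurons 13, 19 and 435 genes passed under the fixed pools 1+2 and 3+4, 1+3 and 2+4, and 1+4 and 2+3, 85 with the 6 libraries as blocks, 0 with relative log expression factors and 0 to 15 without 1 library; the *Zfhx3* difference stayed between 1.91 and 2.44. In the difference from oligodendrocytes 69 passed with pools 1+4 and 2+3, 27 with library blocks and 0 to 3 without 1 library. Between the *Gfap* classes 1 gene passed in DESeq2 and 0 to 8 without 1 library (0 without fed library 1 or 3). Without the 18 nuclei that hold no *Slc1a2* or *Gpc5*, which like the nucleus with most *Gfap* was left out after seeing the data, 0, 4 and 7 genes passed in these 3 fits, and without that nucleus 0, with or without the 18. Without the 18, *Bicc1* in the difference from neurons (0.66) and *Ptgds* between the *Gfap* classes (0.69) turned sign, since these nuclei hold most of their UMIs. The other causes were not tested. The difference from tanycytes was not run, because fed libraries 3 and 4 held 7 and 1 tanycytes, nor were classes by at least 2 *Gfap* UMIs, which left a pool empty.

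The ratio of shares lay between 2.51 and 4.64 under the alternatives and between 3.31 and 4.82 without 1 library. Precision was limited by 1 fasted pool, by 45 and 38 astrocytes in fed libraries 3 and 4 and, there, by the 5.66 and 7.17 CPM that 1 UMI was worth.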
